A study of Mus musculus with 16 samples.

Results

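The mitophagy and autophagy receptor genes were followed in the cerebellum and hippocampus of aged mice that overexpressed a mutant Twinkle protein and of wild-type mice. Twinkle is a mitochondrial helicase needed to copy mitochondrial DNA. The list named 10 genes: Pink1, Sqstm1, Optn, Map1lc3a, Map1lc3b, Gabarapl1, Bnip3, Bnip3l, Fundc1 and Calcoco2. They are called receptor genes below, although Pink1 encodes a kinase and Map1lc3a, Map1lc3b and Gabarapl1 encode proteins that receptors bind. A member was measured where a probe set of the array carried its symbol alone in the platform annotation. By that rule 8 members were measured, with 17 probe sets between them, among 18168 measured genes. Optn, a ubiquitin-binding receptor, had 0 such probe sets. The 3 probe sets of Bnip3l, a receptor of the outer mitochondrial membrane, also carry the symbol of the pseudogene Bnip3l-ps, so no value is given for it.

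Mitophagy removes damaged mitochondria by enclosing them in a double membrane, the autophagosome, which then fuses with a lysosome. In one route the kinase PINK1 collects on mitochondria that have lost their membrane potential and recruits the ubiquitin ligase parkin, and receptors such as SQSTM1, OPTN and CALCOCO2 tie the ubiquitin chains to the autophagosome. In the other route BNIP3, BNIP3L and FUNDC1 sit in the outer mitochondrial membrane and bind the autophagosome directly. Both routes end on small ubiquitin-like proteins of the ATG8 family, to which MAP1LC3A, MAP1LC3B and GABARAPL1 belong. Much of this control acts on proteins, which arrays do not measure.

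There were 16 arrays in 4 groups of 4: wild-type and mutant Twinkle mice, each with cerebellum and hippocampus. In order of replicate number the wild types were 26, 24, 21 and 23 months old and the mutants 24, 24, 21 and 21. The sources used here do not give the transgene's promoter, the strain or the sex, nor whether a cerebellum and a hippocampus came from 1 animal. The labels call the replicates biological, and the p-values cover only the spread among them, which may in part be technical. Hippocampus samples are described as cerebellum in 1 label field, and their titles, source and tissue labels were followed. The deposited values are relative. For each probe set the median over the 8 arrays of a region is 0 within 1e-05, so a value says how far an array lies from the middle of its region, and neither levels of different genes nor levels of the 2 regions can be compared. The values are taken as log2. The log base is not stated, and with a natural logarithm every value would have to be multiplied by 1.44.

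Several arrays stood apart in ways that bear on single values below. Wild-type hippocampus replicate 1 stood at 2.66 for the mean of 8 cerebellar granule neuron markers and at 2.01 for 5 Purkinje cell markers, and the other 7 hippocampus arrays lay between -0.28 and 0.97 for the first list and between -0.10 and 0.58 for the second. Mutant hippocampus replicate 4 stood at 2.19 for 7 choroid plexus markers, and mutant cerebellum replicate 4 at -1.46 for the same markers. Mutant hippocampus replicate 1 stood at 0.79 for 7 markers of meninges and fibroblasts, where the other hippocampus arrays were at most at 0.12. Wild-type cerebellum replicate 3 stood at 0.26 for 6 oligodendrocyte markers and at 0.17 for 8 neuron markers, where the other cerebellum arrays were at most at 0.03 and 0.04. The mean of 4 erythroid markers separated the genotypes in both regions, with mutants from -0.12 to -0.07 and wild types from 0.04 to 0.35 in the cerebellum, and mutants from -0.30 to -0.06 and wild types from 0.06 to 0.67 in the hippocampus. Its part in any member's difference was not tested. The poly-A spike-in probe sets averaged 0.55 and 0.59 on mutant cerebellum replicates 2 and 4 and at most 0.05 on the other cerebellum arrays. The hybridization spike-in probe sets averaged -0.72 on wild-type cerebellum replicate 4 and 0.27 on wild-type cerebellum replicate 3. On the other cerebellum arrays they lay between -0.11 and 0.12. The labelled region cannot be checked against absolute marker levels, since none are left in the values. In bulk tissue, fewer cells of a type and less RNA per cell cannot be told apart.

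The promoters of 2 members are shown because the sections below turn on them: Bnip3, which is known as a target of hypoxia-inducible factor, and Pink1, which had the widest genotype difference. Each is the stretch of 300 bases from 250 before to 50 after the start of the gene in RefSeq's GRCm38.p6 annotation, read 5′ to 3′ on the gene's own strand, Bnip3 at chr7:138909457-138909756 and Pink1 at chr4:138326247-138326546, both on the minus strand. Capitals mark matches on either strand to ACGTG or GCGTG, the core of the hypoxia response element.
Bnip3: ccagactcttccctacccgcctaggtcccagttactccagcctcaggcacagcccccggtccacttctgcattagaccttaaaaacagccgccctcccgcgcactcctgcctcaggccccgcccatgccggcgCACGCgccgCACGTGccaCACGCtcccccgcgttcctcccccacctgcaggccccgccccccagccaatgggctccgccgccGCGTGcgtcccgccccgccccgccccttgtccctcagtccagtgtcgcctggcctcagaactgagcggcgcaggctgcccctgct
Pink1: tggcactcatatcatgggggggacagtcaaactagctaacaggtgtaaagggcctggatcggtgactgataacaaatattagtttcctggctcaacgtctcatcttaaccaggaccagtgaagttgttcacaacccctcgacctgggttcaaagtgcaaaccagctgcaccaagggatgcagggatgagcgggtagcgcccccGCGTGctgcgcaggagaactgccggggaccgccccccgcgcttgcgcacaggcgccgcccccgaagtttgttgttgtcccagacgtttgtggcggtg
The Bnip3 window held 3 matches to GCGTG and 2 to ACGTG. The 2 ACGTG matches are the same letters read on both strands, since they lie inside the palindrome CACGTG. The Pink1 window held 1 match to GCGTG and 0 to ACGTG. Of 27025 promoter windows of this length, 43.8% held at least 1 of these cores, 19.7% held ACGTG and 7.2% held CACGTG. Of the 6 measured members with such a window, 3 held a core: Bnip3, Pink1 and Map1lc3b, the last with 5 matches to GCGTG. These matches describe letters in the window and say nothing of whether a factor binds there.

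The first question was whether mutant Twinkle mice differed from wild types in the receptor genes of either region. In the cerebellum the 8 log2 differences, mutant minus wild type throughout, ran from -0.11 for Map1lc3a to 0.09 for Fundc1, with 3 above 0, against 53.6% of all genes, and 5 below and a median of -0.02. In the hippocampus they ran from -0.18 for Pink1 to 0.11 for Bnip3, with 5 above 0, against 58.9% of all genes, and 3 below and a median of 0.03. The medians over all genes were 0.01 and 0.02. limma called 0 of the 8 members in either region at an adjusted p under 0.05, against 0% of all genes in each. At an unadjusted p under 0.05 there were also 0 members in each region, where all genes gave 979 or 5.39% in the cerebellum and 1459 or 8.03% in the hippocampus. The smallest limma adjusted p of a member was 0.885 in the cerebellum and 0.648 in the hippocampus. For 0 of the 8 members did the genotypes lie fully apart in either region, as they did for 2.46% of all genes in the cerebellum and 4.76% in the hippocampus. The median size of a member's difference, sign aside, was 0.04 in the cerebellum and 0.05 in the hippocampus, against 0.06 in each region over all genes.

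**Figure D1:**
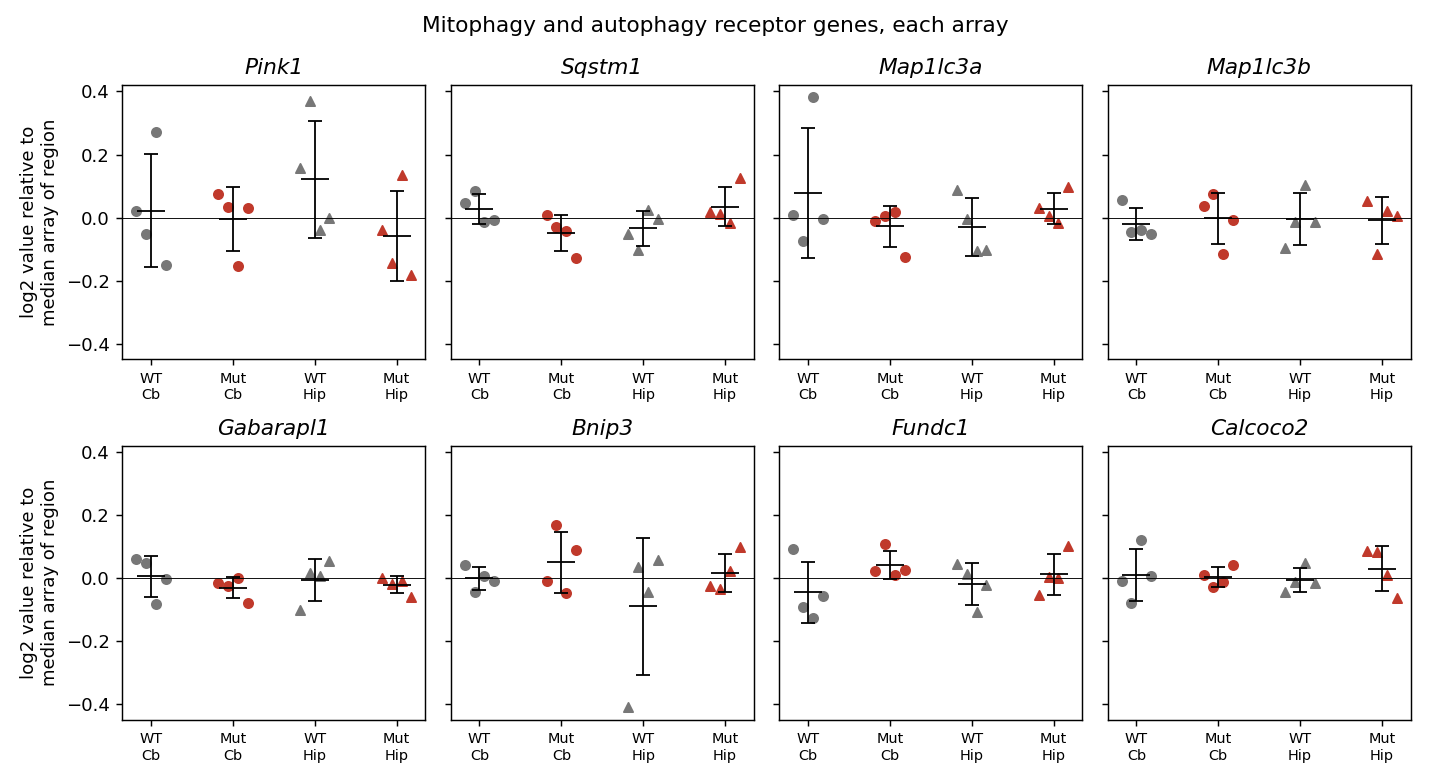
Log2 value relative to the median array of the region (y axis) for the 8 measured receptor genes in wild-type (WT, grey) and mutant (Mut, red) cerebellum (Cb, circles) and hippocampus (Hip, triangles). Each point is 1 array, placed by replicate number, and the bar is the mean with its SD (n = 4). Genotypes overlap for every gene in both regions, and the most distant points are wild-type arrays: Bnip3 at -0.41, Map1lc3a at 0.38 and Pink1 at 0.37.

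Pink1, the kinase that starts parkin-dependent mitophagy, had the widest difference of the members. In the hippocampus the 4 wild types lay at 0.16, 0.37, -0.04 and -0.00 and the 4 mutants at -0.04, -0.14, 0.14 and -0.18, in order of replicate number. Wild-type replicate 2 was the highest array and 3 of the 4 mutants lay below 0, but mutant replicate 3 was above 2 of the wild types. The group values were 0.12 ± 0.19 in wild types and -0.06 ± 0.14 in mutants (SD, n = 4), a difference of -0.18 (SE 0.10, 95% interval -0.39 to 0.03, limma adjusted p = 0.65). The difference was -0.10 without wild-type replicate 2, -0.24 without mutant replicate 3 and -0.23 without wild-type replicate 3. Its unadjusted p was under 0.05 in 3 of 19 alternative fits, with adjusted p of at least 0.54 in all 19. It was -0.36 among the older animals of replicates 1 and 2 and -0.0036 among the younger ones of replicates 3 and 4. Both Pink1 probe sets lay on the same side, at -0.27 (SE 0.14) for 1441937_s_at and -0.09 (SE 0.08) for 1451148_at. Beside this, neuron markers had 5 of 8 members below 0 in the hippocampus with a median of -0.04, and their mean ranged from -0.04 to -0.00 over mutant arrays and from -0.04 to 0.08 over wild types. Dentate granule neuron markers had 5 of 6 members below 0 there (median -0.26) and Purkinje cell markers 5 of 5 below 0 (median -0.32). Calb1 belongs to both of these lists, so their counts share a gene. Cerebellar granule neuron markers had 7 of 8 below 0 (median -0.28) and erythroid markers 3 of 4 below 0 (median -0.35). Ependymal markers had 6 of 6 above 0 (median 0.44), markers of meninges and fibroblasts 7 of 7 (median 0.34), choroid plexus markers 6 of 7 (median 0.35) and oligodendrocyte markers 6 of 6 (median 0.12). Single arrays weigh on some of these. Wild-type replicate 1 stood at 2.66 for cerebellar granule neuron markers and 2.01 for Purkinje cell markers. The other wild types were at most at -0.09 and -0.0019. Mutant replicate 4 stood at 2.19 for choroid plexus markers. The part of these cell types in the Pink1 difference was not tested.

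In the cerebellum Pink1 lay at 0.02, -0.05, 0.27 and -0.15 in wild types and 0.08, 0.03, -0.15 and 0.03 in mutants. Wild-type replicate 3, an array set apart above, was the highest. Wild-type replicate 4, the array with low hybridization spike-ins, and mutant replicate 3 were the lowest. The difference was -0.03 (SE 0.10, 95% interval -0.24 to 0.19, limma adjusted p = 0.99).

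Sqstm1, which encodes the ubiquitin-binding receptor that carries cargo to the autophagosome, was the member whose sign differed most clearly between regions. In the cerebellum the wild types lay at 0.05, 0.08, -0.01 and -0.01 and the mutants at 0.01, -0.03, -0.04 and -0.13. There 3 of 4 mutants were below every wild type. In the hippocampus the wild types lay at -0.05, -0.10, 0.02 and -0.00 and the mutants at 0.02, 0.01, -0.02 and 0.13, and 2 wild types were below every mutant. The differences were -0.08 (SE 0.05, 95% interval -0.18 to 0.03) in the cerebellum and 0.07 (SE 0.05, 95% interval -0.04 to 0.17) in the hippocampus, with limma adjusted p of 0.89 and 0.73. The extreme arrays, at -0.13 and 0.13, were mutant cerebellum replicate 4 and mutant hippocampus replicate 4, which stood at -1.46 and 2.19 for choroid plexus markers. The differences were -0.05 without the first and 0.04 without the second. Choroid plexus markers had 6 of 7 below 0 in the cerebellum and 6 of 7 above 0 in the hippocampus. Oligodendrocyte markers had 6 of 6 below and 6 of 6 above, also the signs of Sqstm1. Microglia markers had the opposite signs, with 7 of 7 above and 6 of 7 below. Markers of meninges and fibroblasts had 6 of 7 and 7 of 7 above 0. Wild-type cerebellum replicate 3 stood at 0.26 for oligodendrocyte markers, where the other cerebellum arrays were at most at 0.03. Sqstm1 was at -0.01 on that array, the lowest of the wild types. The part of these cell types in Sqstm1 was not tested. Both Sqstm1 probe sets had the signs of the gene in each region. The test of the difference between the regions is given further down.

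Calcoco2, a receptor of the same ubiquitin-dependent route that in human cells also targets bacteria, was measured by 1 probe set and lay close to 0. The wild types were at -0.01, -0.08, 0.12 and 0.01 in the cerebellum and -0.04, -0.01, 0.05 and -0.01 in the hippocampus. The mutants were at 0.01, -0.03, -0.01 and 0.04 in the cerebellum and 0.09, 0.08, 0.01 and -0.06 in the hippocampus. Older mutants were the 2 highest hippocampus arrays and a younger mutant the lowest. The differences were -0.01 (SE 0.05, 95% interval -0.12 to 0.10) and 0.04 (SE 0.05, 95% interval -0.07 to 0.14), with limma adjusted p of 0.99 and 0.88.

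Among the receptors of the outer mitochondrial membrane, Bnip3 had its lowest value on an array already set apart. Hippocampal values lay at -0.41, 0.04, -0.04 and 0.06 in wild types and at -0.02, -0.03, 0.02 and 0.10 in mutants. Wild-type replicate 1, the array with raised cerebellar neuron markers, lay far below the other 7 arrays, which spanned -0.04 to 0.10. The difference was 0.11 (SE 0.08, 95% interval -0.07 to 0.28, limma adjusted p = 0.77) with that array and -0.0012 (SE 0.06) without it. In the cerebellum Bnip3 lay at 0.04, -0.04, 0.01 and -0.01 in wild types and -0.01, 0.17, -0.05 and 0.09 in mutants. The highest were mutant replicates 2 and 4, the arrays with raised poly-A spike-ins, and the difference was 0.05 (SE 0.08, 95% interval -0.13 to 0.23) with them and -0.03 without them.

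Fundc1, a receptor whose binding to the autophagosome is set by phosphorylation, had the largest positive difference of the cerebellum. Its wild types were at 0.09, -0.09, -0.13 and -0.06 and its mutants at 0.02, 0.11, 0.01 and 0.03. Here 3 of 4 wild types lay below every mutant, and wild-type replicate 1 lay inside the mutant range. The difference was 0.09 (SE 0.06, 95% interval -0.03 to 0.21, limma adjusted p = 0.89), and it was 0.06 without wild-type replicate 3 and 0.13 without wild-type replicate 1, the latter with an unadjusted p of 0.027 and an adjusted p of 0.55. Its 3 probe sets agreed in sign, at 0.08, 0.10 and 0.09. In the hippocampus the wild types were at 0.04, 0.01, -0.11 and -0.02 and the mutants at -0.05, 0.00, 0.00 and 0.10, a difference of 0.03 (SE 0.06, 95% interval -0.09 to 0.15). It was 0.0005 without wild-type replicate 3, 0.0011 without mutant replicate 4 and 0.05 without either genotype's replicate 1.

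The ATG8 family members coat the autophagosome membrane and are what the receptors bind. Map1lc3a had the lowest difference of the cerebellum, with wild types at 0.01, -0.07, 0.38 and -0.00 and mutants at -0.01, 0.01, 0.02 and -0.12. Wild-type replicate 3, the array with raised oligodendrocyte and neuron markers, stood far above the other 7 arrays, which spanned -0.12 to 0.02. The difference was -0.11 (SE 0.08, 95% interval -0.28 to 0.07, limma adjusted p = 0.91) with that array and -0.0051 (SE 0.06) without it. Both probe sets were raised on that array, at 0.27 and 0.49. In the hippocampus Map1lc3a lay at 0.09, -0.00, -0.11 and -0.10 in wild types and 0.03, 0.00, -0.02 and 0.10 in mutants, a difference of 0.06 (SE 0.08, 95% interval -0.11 to 0.23).

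Map1lc3b, whose protein is the usual marker of autophagosomes, was measured by 4 probe sets that did not agree in sign. They ran from -0.03 to 0.07 in the cerebellum and from -0.07 to 0.06 in the hippocampus. Its gene values were 0.06, -0.05, -0.04 and -0.05 in wild-type and 0.04, 0.08, -0.12 and -0.01 in mutant cerebellum, and mutants were both the highest and the lowest arrays. Wild types of the hippocampus lay at -0.10, -0.01, 0.10 and -0.01 and the mutants at 0.05, -0.12, 0.02 and 0.00. The differences were 0.02 (SE 0.06, 95% interval -0.10 to 0.14) and -0.0042 (SE 0.06, 95% interval -0.13 to 0.12), with limma adjusted p of 0.99 in each region.

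Gabarapl1, a family member that is known for its abundance in brain, had the smallest standard errors of the 8 within each region. It lay at 0.06, 0.05, -0.08 and -0.00 in wild-type and -0.02, -0.02, 0.00 and -0.08 in mutant cerebellum. In the hippocampus the wild types lay at -0.10, 0.02, 0.01 and 0.05 and the mutants at 0.00, -0.02, -0.01 and -0.06. There the mutants lay inside the wild-type range. The differences were -0.04 (SE 0.05, 95% interval -0.14 to 0.07) and -0.02 (SE 0.05, 95% interval -0.12 to 0.09), with limma adjusted p of 0.95 in each region. Its probe set 1416418_at was at -0.08 and -0.05, while 1416419_s_at was at 0.01 and 0.02.

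**Figure D2:**
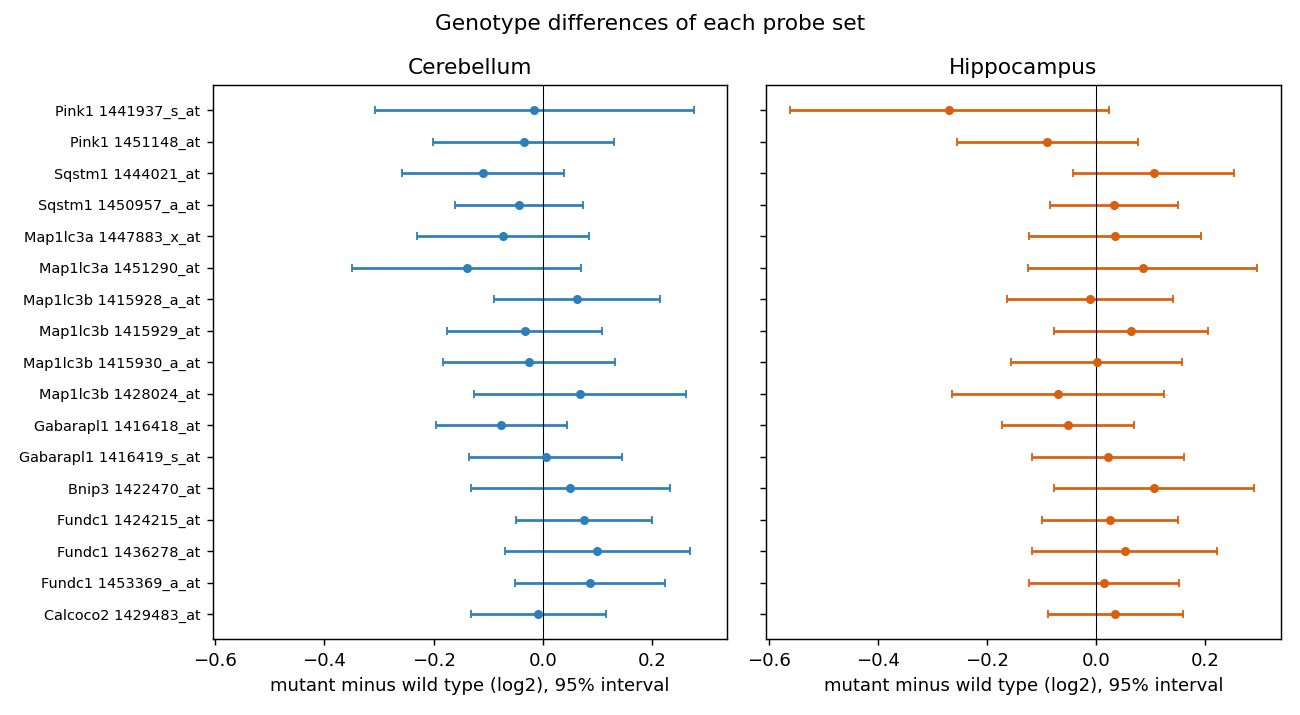
Genotype difference (x axis, mutant minus wild type, log2) of each of the 17 probe sets, named by gene and probe set, in cerebellum (left) and hippocampus (right). Points are estimates and bars are 95% intervals from limma fitted to every probe set on its own. Every interval spans 0, and the widest is that of the Pink1 probe set 1441937_s_at.

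Among the 17 probe sets, limma fitted to all 44904 probe sets called 0 in either region, against 0% of all probe sets. The unadjusted p was under 0.05 for 0 of the 17 in each region as well, against 5.77% of all probe sets in the cerebellum and 7.19% in the hippocampus. Sqstm1, Map1lc3a, Fundc1 and Pink1 had all of their probe sets on 1 side of 0 within each region. Map1lc3b and Gabarapl1 did not in either region.

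The second question was whether the genotype effect differed between regions. The fit treated the arrays of both regions as independent, while the labels do not say whether they share animals. The difference of the effects, hippocampus minus cerebellum, had 5 members above 0, against 54.9% of all genes, and 3 below, from -0.15 for Pink1 to 0.17 for Map1lc3a. Sqstm1 had the smallest p of the members, with 0.15 (SE 0.07, 95% interval -0.0040 to 0.30, unadjusted p = 0.056, limma adjusted p = 0.87). limma called 0 of the 8 members, against 0% of all genes, and 0 members had an unadjusted p under 0.05, against 972 genes or 5.35%. For Sqstm1 the unadjusted p was under 0.05 in 6 of 25 alternative fits, with values from 0.12 to 0.21 and adjusted p of at least 0.67. Of the 17 probe sets, 1 had an unadjusted p under 0.05 for this difference, against 5.18% of all probe sets: the Sqstm1 probe set 1444021_at, at 0.21 (SE 0.10, unadjusted p = 0.045, limma adjusted p = 0.91), while the other Sqstm1 probe set was at 0.08. For Map1lc3a the value was 0.07 without wild-type cerebellum replicate 3.

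Averaging both regions for each genotype and replicate number gave narrower intervals. Here 4 members were above 0, against 58.7% of all genes, and 4 below, from -0.10 for Pink1 to 0.08 for Bnip3, with a median of 0.0016 against 0.01 over all genes. Pink1 was at -0.10 (SE 0.05, 95% interval -0.22 to 0.02, limma adjusted p = 0.61), and at -0.15 with an unadjusted p of 0.0059 and an adjusted p of 0.47 without wild-type replicate 4. Sqstm1 was at -0.0038 (SE 0.03, 95% interval -0.08 to 0.07), between its values in the 2 regions. Map1lc3b was at 0.01 (SE 0.04, 95% interval -0.07 to 0.09) and Gabarapl1 at -0.03 (SE 0.04, 95% interval -0.11 to 0.06). Over the 8 members the intervals reached no lower than -0.22 and no higher than 0.19. limma called 0 members, against 0% of all genes, and 0 members had an unadjusted p under 0.05, against 1546 genes or 8.51%.

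**Figure D3:**
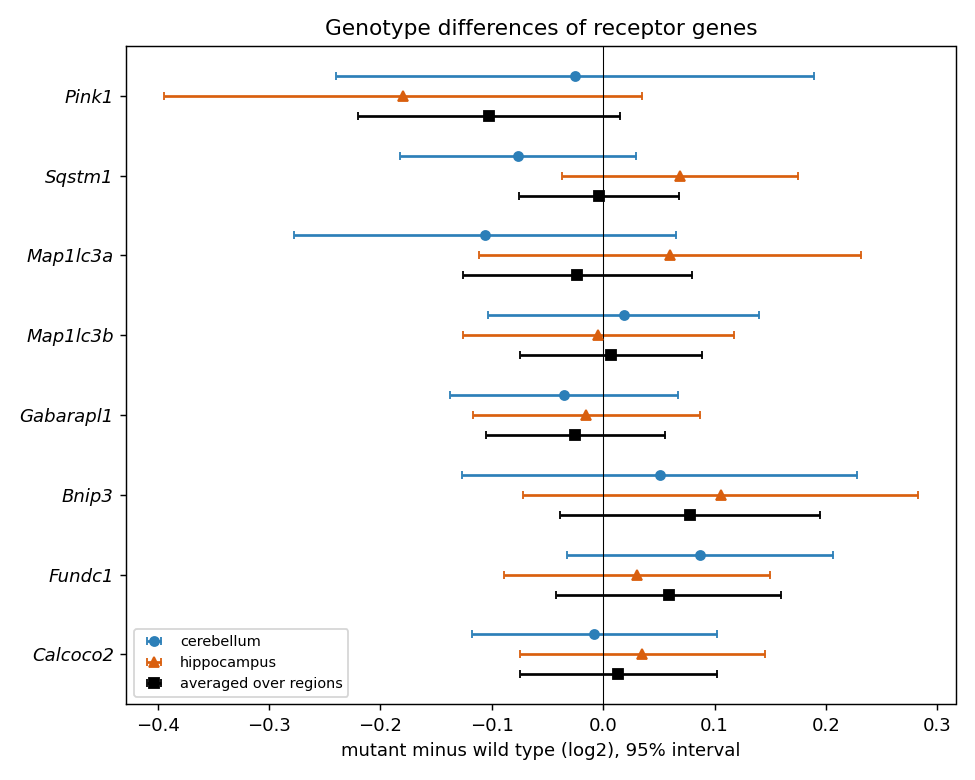
Genotype difference (x axis, mutant minus wild type, log2) of the 8 receptor genes in the cerebellum (circles), the hippocampus (triangles) and averaged over regions (squares). Bars are 95% intervals from limma. Every interval spans 0; Sqstm1 and Map1lc3a lie below 0 in the cerebellum and above it in the hippocampus, and Pink1 has the lowest values in the hippocampus and in the average.

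The labels also give ages, and every group held 2 animals of at least 24 months and 2 of at most 23 months. Older animals are replicates 1 and 2 throughout, so age and anything else shared by those replicates cannot be told apart. In the cerebellum 6 of 8 members lay higher in older animals, against 52.6% of all genes, from -0.08 for Map1lc3a to 0.08 for Map1lc3b, where Sqstm1 was at 0.07 (SE 0.05). In the hippocampus 4 of 8 lay higher, against 45.3% of all genes, and Map1lc3b and Sqstm1 had the opposite sign, at -0.07 (SE 0.05) and -0.06 (SE 0.05). Bnip3 was lowest there, at -0.14 (SE 0.08, 95% interval -0.31 to 0.03, limma adjusted p = 0.78), and was at -0.04 without wild-type replicate 1 and -0.22 without wild-type replicate 2, the latter with an unadjusted p of 0.011 and an adjusted p of 0.30. limma called 0 members in either region, against 0% of all genes, and 0 had an unadjusted p under 0.05, against 764 genes or 4.21% in the cerebellum and 1190 genes or 6.55% in the hippocampus.

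The other genes of the pathway were read from lists written down with earlier results of these data known. limma called 0 genes of any of the 7 lists in either region, against 0% of all genes. Beside the counts of signs that follow, 53.6% of all genes lay above 0 in the cerebellum and 58.9% in the hippocampus. In the list for autophagy initiation and vesicle nucleation, which holds the ULK1 kinase complex and the lipid kinase complex of BECN1, 10 of 17 genes lay below 0 in each region, with medians of -0.03 in the cerebellum and -0.01 in the hippocampus. Its genes of smallest p were the lipid transfer protein Atg2a at -0.13 and Ulk1 at -0.08 in the cerebellum, and Ambra1, a partner of BECN1, at -0.13 and Rb1cc1, a subunit of the ULK1 complex, at -0.05 in the hippocampus. The list for ATG8 conjugation, which also holds the ATG4 proteases, had 6 of 10 genes above 0 in the cerebellum and 7 of 10 in the hippocampus. Its medians were 0.02 and 0.01. The ATG8 proteases Atg4b, at 0.07 in the cerebellum, and Atg4c, at -0.16 (SE 0.08) in the hippocampus, had the smallest p, followed by Atg10 at 0.13 and Atg12 at 0.04.

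Further receptors and ATG8 proteins outside the 8 members had 9 of 14 genes below 0 in the cerebellum and 8 of 14 in the hippocampus, with medians of -0.04 and -0.02. Fkbp8, a mitophagy receptor of the outer membrane, was at -0.22 (SE 0.11, unadjusted p = 0.052, limma adjusted p = 0.88) and Tollip, which binds ubiquitin, at -0.17 in the cerebellum. Nipsnap2 and the receptor Bcl2l13 were at -0.13 and -0.07 in the hippocampus.

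Genes around PINK1 and parkin had 11 of 18 measured members above 0 in the cerebellum with a median of 0.05, and 7 of 18 above 0 in the hippocampus with a median of -0.0028. Fbxo7, an F-box protein that acts with parkin, lay higher on average in both regions, at 0.15 (SE 0.06, unadjusted p = 0.025, limma adjusted p = 0.88) and 0.12 (SE 0.06, limma adjusted p = 0.62). Usp15, a deubiquitinase that opposes parkin, was at -0.13 (SE 0.06) in the cerebellum. Tbk1, the kinase that phosphorylates OPTN and SQSTM1, was at -0.22 (SE 0.07, unadjusted p = 0.0068, limma adjusted p = 0.49) in the hippocampus. Of the 18 genes, 2 had an unadjusted p under 0.05 in the cerebellum, against 5.39% of all genes. In the hippocampus 1 did, against 8.03%. These genes were named for having the smallest p of their list.

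The list for lysosome biogenesis also holds genes for fusion of the autophagosome with the lysosome, such as Stx17 and Snap29. Of its genes, 14 of 17 lay below 0 in the cerebellum (median -0.05), where 53.6% of all genes lay above 0. In the hippocampus 13 of 17 lay above 0 (median 0.03), against 58.9% of all genes. Of the 17, 0 had an unadjusted p under 0.05 in either region, against 5.39% and 8.03% of all genes. For the difference between the regions there were also 0, against 5.35%. The transcription factors Tfeb and Tfe3 were at -0.09 and -0.10 in the cerebellum, and the protease Ctsl at -0.09 and the membrane protein Lamp1 at 0.10 in the hippocampus. Beside this, oligodendrocyte markers had 6 of 6 genes below 0 in the cerebellum (median -0.05) and 6 of 6 above 0 in the hippocampus (median 0.12), and choroid plexus markers 6 of 7 below (median -0.45) and 6 of 7 above (median 0.35). Microglia markers had the opposite signs, with 7 of 7 above 0 in the cerebellum (median 0.06) and 6 of 7 below in the hippocampus (median -0.08). Mutant cerebellum replicate 4 and mutant hippocampus replicate 4 stood at -1.46 and 2.19 for the choroid plexus markers. For oligodendrocyte markers, wild-type cerebellum replicate 3 stood at 0.26 and the other cerebellum arrays were at most at 0.03. The part of these cell types in the lysosomal genes was not tested.

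Bnip3 is known as a hypoxia-induced gene, and 14 other hypoxia-induced genes were set beside it. In the hippocampus 12 of the 14 lay below 0, with a median of -0.06, while Bnip3 lay at 0.11. The growth factor gene Vegfa was at -0.29 (SE 0.09, unadjusted p = 0.0052, limma adjusted p = 0.45) and Pfkfb3, a regulator of glycolysis, at -0.14 (SE 0.06). These were the 2 of 14 with an unadjusted p under 0.05 there, against 8.03% of all genes. In the cerebellum 9 of 14 lay below 0, with a median of -0.01, led by Egln1, an oxygen-sensing hydroxylase, at -0.14 and the mitochondrial protein gene Higd1a at 0.11. On wild-type hippocampus replicate 1, where Bnip3 was at -0.41, the list averaged 0.12, its highest value over the 16 arrays. Without that array the Bnip3 difference in the hippocampus was -0.0012. NRF2 is a transcription factor that activates Sqstm1 and is itself released when SQSTM1 protein binds its inhibitor. Its targets had 6 of 8 measured genes below 0 in the cerebellum (median -0.02) and 5 of 8 above 0 in the hippocampus (median 0.04), where 58.9% of all genes lay above 0, and 0 of the 8 had an unadjusted p under 0.05 in either region. Their genes of smallest p were Txnrd1 at -0.13 and Osgin1 at -0.09 in the cerebellum and Nqo1 at 0.19 and Gclc at -0.06 in the hippocampus.

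**Figure D4:**
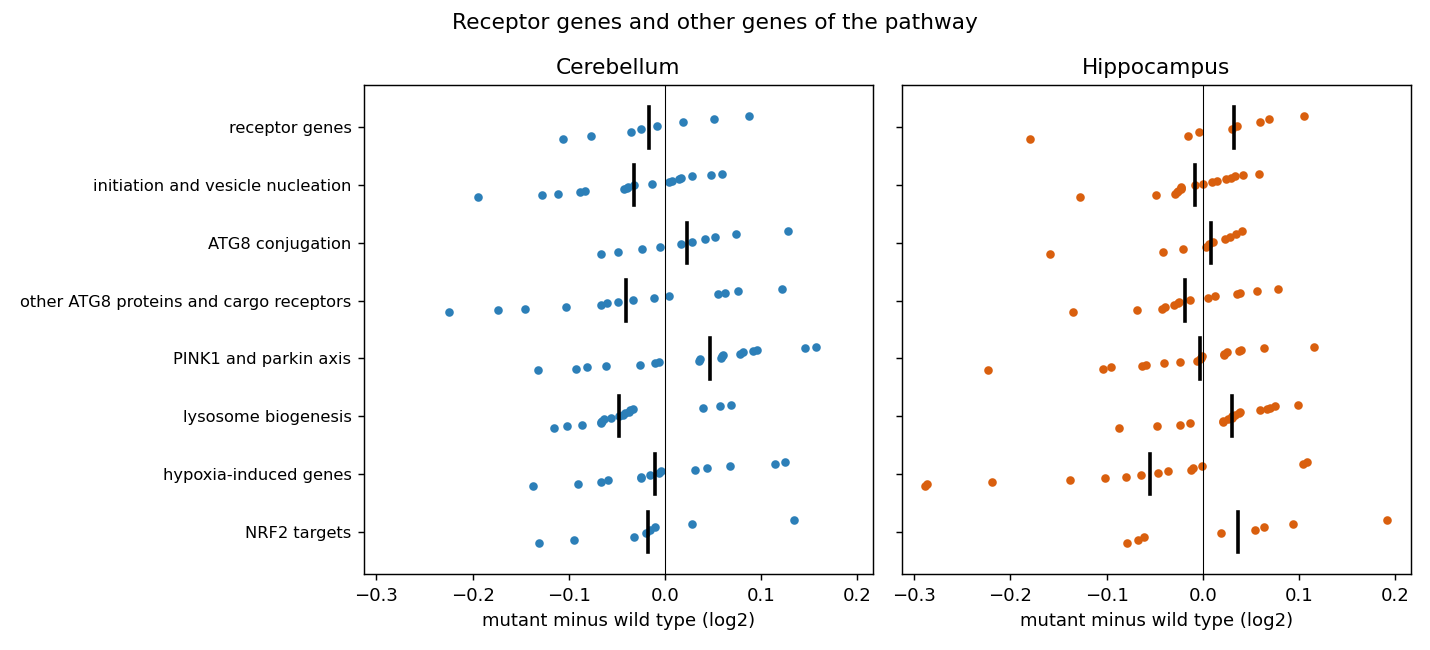
Genotype difference (x axis, mutant minus wild type, log2) of each gene of the receptor group and of 7 pathway lists, in cerebellum (left) and hippocampus (right). Each point is 1 gene, ordered by value within its list, and the black bar is the median of the list. Genes of the lysosome biogenesis list, which includes fusion genes, lie mostly below 0 in the cerebellum and above 0 in the hippocampus. Hypoxia-induced genes lie mostly below 0 in the hippocampus, and 0 genes are called in either region. Of all genes, 53.6% lie above 0 in the cerebellum and 58.9% in the hippocampus.

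For each member, the gene outside the list with the most similar pattern over the 16 arrays was found by Pearson's r. These r values were the highest among all genes and are given as a description. The closest was that of Bnip3 with Fam217b (r = 0.956, Spearman's rho = 0.812), which was 0.747 without the 2 arrays farthest from the Bnip3 median. Map1lc3a was closest to Snapc2 (r = 0.943, rho = 0.797), and r was 0.815 without its 2 farthest arrays. Fundc1 was closest to the prefoldin subunit gene Pfdn4 (r = 0.904, rho = 0.868), and there r was 0.915 without the 2 farthest arrays. For the other 5 members, r lay between 0.796 with Rcvrn for Calcoco2 and 0.869 with Zzz3 for Pink1, with Ddi1 for Sqstm1, Hcst for Gabarapl1 and Commd2 for Map1lc3b between them.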

How the data were processed

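Per the labels' protocols, 5 ug of Trizol-extracted total RNA was made into labelled cRNA for Affymetrix arrays. The submitters' processing notes name GCOS 4.0, and how the values were summarised, normalized and centred is not stated there. The values deposited by the authors were read as log2 and are relative within each region, so no filter on dim probe sets was possible. Of 45101 probe sets, 64 controls and 133 with an empty value were left out, leaving 44904. Those with 1 symbol (34843) were averaged into 18168 genes. limma 3.58.1 (R 4.3.3) was used without a variance trend, with 16 arrays and 4 group means. Contrasts were the genotype difference in each region, its difference between regions, its average on 8 means of both regions, and older against younger animals. Tests were two-sided, and Benjamini-Hochberg adjusted p-values covered every gene (threshold 0.05). The fits were tested on simulated data. The number of arrays limits the precision, with a median SE of 0.0741 for a genotype difference. All members were named, with the 2 genes of smallest p per pathway list and region and the gene most like each member. The members and lists were chosen with earlier results of these data known. Alternatives covered probe set choice, normalization, variance model, the replicate block and arrays left out.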

Additional observations from a re-analysis of the deposited data

Results flagged for a closer look

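Of 32 sets of 4 values, 1 per member and group, 2 held an array far from the other 3 by Dixon's ratio of the gap to the range, where chance gives about 1 in 20. Map1lc3b in wild-type cerebellum had replicate 1 at 0.06, with the next array at -0.04 and a ratio of 0.881. Fundc1 in mutant cerebellum had replicate 2 at 0.11, with the next array at 0.03 and a ratio of 0.839.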

How the results depend on the processing

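limma called 0 members under all 110 alternative member counts, and 280 of 304 single-member differences kept their direction, while 24 changed sign. Part of the 280 was fixed in advance. Robust eBayes, the replicate block, the replicate set as a term and a region fitted alone leave a difference as it is in this balanced design. The median of probe sets does so for members with 1 or 2 probe sets. In the cerebellum Pink1 was at 0.0014 after quantile normalization. Within replicates 1 and 2 of the cerebellum Calcoco2 was at 0.0342, Map1lc3a at 0.0301 and Pink1 at 0.071, and within replicates 3 and 4 Gabarapl1 was at 0.0039 and Map1lc3b at -0.014. Without mutant cerebellum replicates 2 and 4, Bnip3 was at -0.0275 and Map1lc3b at -0.0191. In the hippocampus Fundc1 was at -0.0034 with the median of probe sets. Within replicates 1 and 2 of the hippocampus Fundc1 was at -0.0548, Gabarapl1 at 0.0334, Map1lc3a at -0.024 and Map1lc3b at 0.023, and within replicates 3 and 4 Calcoco2 was at -0.0434. Without wild-type replicate 1 and mutant replicates 1 and 4, Bnip3 was at -0.0221. The cause of these changes was not tested.

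Leaving out 1 array at a time gave ranges of -0.0376 to 0.0292 for Calcoco2, -0.0078 to 0.0558 for Map1lc3b and -0.0824 to 0.0574 for Pink1 in the cerebellum. In the hippocampus the ranges were -0.0012 to 0.155 for Bnip3, -0.0465 to 0.0048 for Gabarapl1 and -0.0342 to 0.0319 for Map1lc3b. The ranges of the other members kept their sign, with 0.0115 to 0.083 for Bnip3, 0.0602 to 0.1335 for Fundc1, -0.0647 to -0.017 for Gabarapl1, -0.1564 to -0.0051 for Map1lc3a and -0.0952 to -0.0498 for Sqstm1 in the cerebellum, and 0.0161 to 0.0664 for Calcoco2, 0.0005 to 0.0529 for Fundc1, 0.0347 to 0.0993 for Map1lc3a, -0.2443 to -0.0972 for Pink1 and 0.0385 to 0.0879 for Sqstm1 in the hippocampus. Over all genes, where 0 were called, leaving out 1 array gave 0 to 7 in the hippocampus, 0 to 1 for the difference between regions and 0 to 7 for age in the hippocampus. Within replicates 3 and 4 limma called 1 gene in the cerebellum, 1 in the hippocampus and 1 in the average. In the hippocampus it called 2 genes without _s_at, _x_at and _a_at probe sets, 2 after quantile normalization, 2 with robust eBayes and 1 without wild-type replicate 1 and mutant replicates 1 and 4. For age in the cerebellum it called 7 after quantile normalization and 4 with the region fitted alone. For age in the hippocampus it called 4 without those probe sets, 10 after quantile normalization, 3 with arrays centred on their median and 4 with robust eBayes. The cause was not tested.

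With the replicate block, Pink1 in the hippocampus was at -0.1797 (limma adjusted p = 0.714), and 0 genes were called in either region. Same-numbered mutant and wild-type arrays correlated between -0.192 and 0.231 in their deviations from group means, and same-numbered cerebellum and hippocampus arrays of a genotype between -0.175 and 0.167. Such correlations cannot decide whether same-numbered samples came from the same animal. The average over regions joins arrays of a genotype that share a replicate number and an age.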
